A study of Saccharomyces cerevisiae with 18 samples.

Results

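The transcriptional response of W303, a laboratory strain of *S. cerevisiae*, to cisplatin was described across its genes. Of the 18 samples listed for the study, 6 form this comparison, 3 of untreated W303 and 3 of W303 treated with cisplatin. They were chosen by their labels, which name a single normalization run of 6 arrays. The run holds 10715 probe sets, of which 5698 of *S. cerevisiae* were kept and tested, whatever their level. Each was the probe set of the highest mean for its gene or set of genes, and is called a gene below. Among them 123 are shared by several genes, so that some genes, such as *RPL8A*, are counted more than once.

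Cisplatin is a platinum drug that binds the bases of DNA and forms adducts and crosslinks, which cells recognize and repair. It also binds sulfur atoms, as in the thiol of cysteine and glutathione and the thioether of methionine. In yeast, sulfate is taken up, activated and reduced to sulfide, which is built into homocysteine and from there into methionine, cysteine and *S*-adenosylmethionine (AdoMet). The genes of this pathway are known to be switched on together by the activator Met4, which is brought to DNA by Cbf1, Met31 and Met32.

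Both groups carried the mating type *MATa* and the alleles *ura3-52*, *trp1-100*, *leu2-3, 112*, *can1-100* and *ade2-1*, the study's methods add an allele of *his3*, and no deletion strain was used. Each of 3 cultures in synthetic medium was divided, one aliquot receiving 600 µM cisplatin from a solution in DMSO and the other DMSO alone, and both were kept for 4 h in the dark. RNA was hybridized to Affymetrix Yeast Genome 2.0 arrays, and each value is a log2 signal after RMA, in which all arrays normalized together end with one distribution of values. A change is therefore relative to the other genes, and because whole cultures were extracted, fewer cells of a state and less RNA in each cell cannot be told apart.

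The array medians of the genes lay between 6.95 and 7.00. The array also carries *S. pombe* probe sets, whose medians were 0.67 to 0.70, and taking their 95th percentile as background left 98.7% to 99% of the genes above it. Replicates correlated with r of 0.9926 to 0.9984. The median SD was 0.09 in the untreated and 0.07 in the treated group, and it exceeded 0.4 for 62 and 27 genes in that order. The a-specific genes were all above background, with levels from 4.07 for *ASG7* to 9.88 for *MFA2*. Of the α-specific genes, *STE3*, *MF(ALPHA)1*, *MF(ALPHA)2* and *AFB1* read between 1.07 and 3.19, whereas *SAG1* read 6.87 to 7.27 and goes against that pattern.

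Each gene was tested with limma, 3 arrays against 3, with Benjamini-Hochberg adjustment over all 5698 genes. A gene passed the test at an adjusted p under 0.05, which 750 genes did upwards (13.2% of those tested) and 871 downwards (15.3%). These counts depend on single arrays. The numbers passing were 430 and 520 without cisplatin replicate 2, 458 and 551 without cisplatin replicate 3, and 450 and 575 without untreated replicate 3. In the gene lists below, genes that rose or fell are those that passed, and their counts are to be read beside the shares of 13.2% and 15.3%. A differentially expressed gene (DEG) also had to change by at least 1.6-fold, or 0.68 on the log2 scale, at an unadjusted p under 0.01. DEGs made up 1.58% of the genes upwards (90) and 1.53% downwards (87), 3.11% in all. The groups overlapped in none of them. Over all genes they did not overlap in 46.5%, which lay higher with cisplatin in 22.6% and lower in 23.9%. The sizes were unequal. Among the risen DEGs 50 reached 2-fold, 21 reached 4-fold and 8 reached 8-fold, and among the fallen ones 15 reached 2-fold and 0 reached 4-fold. Over all genes the log2 fold change had a median of 0.00, with the 1st percentile at -0.78 and the 99th at 0.93.

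**Figure D1:**
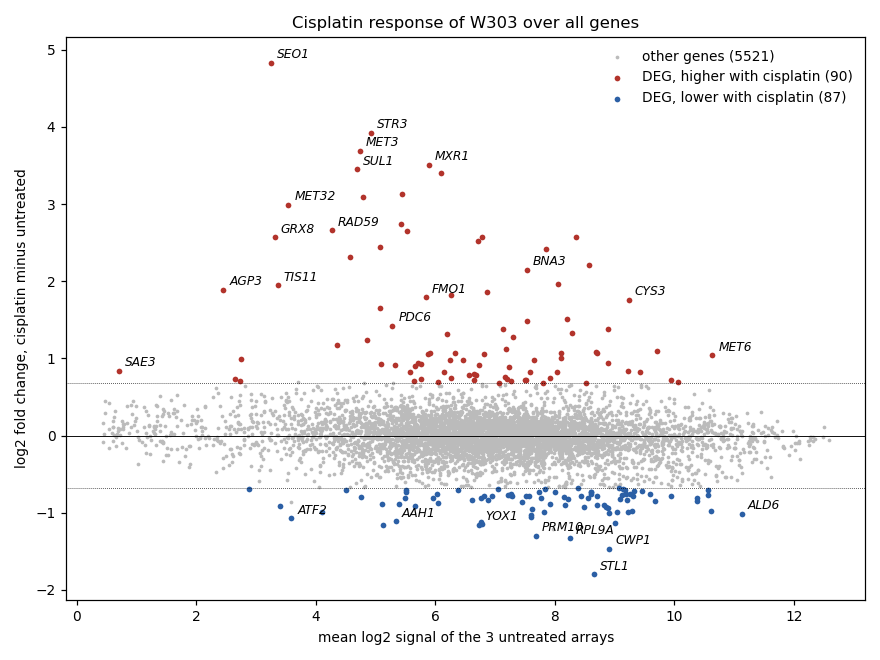
The log2 fold change (cisplatin minus untreated, y axis) is plotted against the mean log2 signal of the 3 untreated arrays (x axis) for every gene, with the 90 risen DEGs in red, the 87 fallen DEGs in blue and the 1.6-fold threshold dotted. The increases reach 4.83 for *SEO1* and the decreases -1.80 for *STL1*.

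The largest increases were those of sulfur genes. The 7 sulfur lists (sulfate uptake and activation, sulfite reductase, homocysteine and cysteine, methionine from aspartate, AdoMet, their regulators, and transport of sulfur compounds) hold 64 genes, of which 42 rose and 8 fell. They supplied 34 of the 90 risen DEGs and 16 of the 20 largest increases. These lists were drawn up with earlier results of these data known, so their counts are a description.

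Uptake and activation of sulfate came first in size, with 6 of 7 genes risen and a median log2 fold change of 3.13. *MET3*, which encodes ATP sulfurylase, the enzyme that activates sulfate, read 4.80, 4.70 and 4.71 untreated and 8.46, 8.38 and 8.45 treated. The groups lay far apart and each was tight, a change of 12.9-fold (log2 3.69 ± 0.06, SE from limma, n = 3 arrays in each group; adjusted p = 1.88e-08). *MET14*, the gene of the adenylylsulfate kinase that acts next, read 5.79, 6.25 and 6.24 without and 9.30, 9.61 and 9.57 with the drug. Replicate 1 was the lowest array of both groups, and all treated arrays lay above all untreated ones (log2 3.40 ± 0.14, adjusted p = 3.77e-06). The sulfate permease genes *SUL1* and *SUL2* rose by 3.45 ± 0.14 and 3.13 ± 0.05 on the log2 scale, and *MET16*, of the reductase that makes sulfite, by 2.65 ± 0.05. *MET22*, whose phosphatase removes the by-product of that step, rose by 1.13 ± 0.06. The exception was *SOA1*, of another transporter of inorganic sulfur compounds, at 0.13 ± 0.08 (adjusted p = 0.224).

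All 4 measured genes of sulfite reduction rose, with a median of 2.31. *MET5* and *MET10*, the subunits of sulfite reductase, rose from untreated means of 7.84 and 8.58 to 10.26 and 10.79. *MET8* and *MET1*, whose products make siroheme, the cofactor of the reductase, rose from 4.80 to 7.89 and from 6.86 to 8.72.

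Of the 9 genes of homocysteine and transsulfuration, 8 rose (median 1.08). *STR3*, which encodes cystathionine β-lyase and so makes homocysteine from cystathionine, read 4.88, 5.02 and 4.90 without cisplatin and 8.91, 8.79 and 8.84 with it. That is a rise of 15.1-fold (log2 3.92 ± 0.06, adjusted p = 1.88e-08) with no overlap. *MET2* and *MET17*, which make *O*-acetylhomoserine and join sulfide to it, rose by 2.75 ± 0.13 and 2.57 ± 0.07. The genes of the branch from homocysteine to cysteine rose by less, *CYS4* by 1.08 ± 0.06 and *CYS3* by 1.76 ± 0.06. *STR2*, for the first step of the opposite branch from cysteine, rose by 0.60 and stayed under the 1.6-fold threshold. *IRC7*, a β-lyase gene, had a value of -0.10 (adjusted p = 0.323).

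The carbon skeleton and the methyl group of methionine come from other pathways, and 5 of those 8 genes rose. *MET6*, methionine synthase, rose from 10.64 to 11.68. *HOM6* and *HOM3*, of the path from aspartate to homoserine, rose by 0.83 and 0.55, and *HOM2* stood at -0.12 (adjusted p = 0.262). *MET13*, a methylenetetrahydrofolate reductase, rose by 0.42, and its second form *MET12* had a value of 0.23 (adjusted p = 0.089, and 0.035 with the replicate number as a block).

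AdoMet genes went both ways, 4 up and 5 down of 14, with a median of -0.04. *SAM1*, one of a pair of AdoMet synthetase genes, read 8.00, 8.11 and 8.08 without and 10.02, 10.00 and 10.04 with cisplatin. The treated arrays were tight and lay well above the untreated ones (log2 1.96 ± 0.05, adjusted p = 3.32e-07). Its partner *SAM2* rose by 0.72 ± 0.06. *MHT1*, which methylates homocysteine with *S*-methylmethionine, rose by 2.31 ± 0.07 (4.96-fold). *SAM4*, which does the same with AdoMet, fell by 0.63 on the log2 scale (adjusted p = 0.000279). *ADI1*, an enzyme of methionine salvage, rose by 1.49, while the salvage genes *MEU1*, *MRI1* and *MDE1* had values between -0.08 and 0.00 and did not pass, and *UTR4* fell by 0.30. *SAH1*, which clears *S*-adenosylhomocysteine, did not pass (0.13, adjusted p = 0.209).

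Among the regulators the transcript of the activator itself was not called. *MET4* read 8.87, 8.81 and 9.06 untreated and 8.88, 8.71 and 8.79 treated, and these values overlap (log2 -0.12 ± 0.08, adjusted p = 0.291). *MET32*, one of its DNA-binding partners, read 3.49, 3.70 and 3.43 without and 6.43, 6.61 and 6.56 with the drug. It rose by 7.94-fold (log2 2.99 ± 0.09, adjusted p = 3.99e-07), the largest change of any regulator in the list. *MET31*, its close relative, fell by 0.33 (adjusted p = 0.00828) and *CBF1* fell by 0.51 (adjusted p = 0.00285). *MET28*, of a cofactor that steadies the complex on DNA, rose by 0.73. *MET30*, whose ubiquitin ligase holds Met4 in check, rose by 0.24 (adjusted p = 0.0223).

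The list for transport of sulfur compounds had 11 risen and 1 fallen of 12, with a median of 1.15. It holds permeases and, with *JLP1* (0.55) and *BDS1* (0.52), enzymes that release sulfur from sulfonates and sulfate esters. *SEO1*, a permease gene placed in this list although its substrates are uncertain, had the largest change of all genes. It read 3.27, 3.13 and 3.34 without and 8.12, 8.10 and 8.02 with cisplatin, a 28.5-fold rise (log2 4.83 ± 0.07, adjusted p = 1.88e-08). *MUP1* and *MUP3*, the high- and low-affinity methionine permeases, rose by 2.57 ± 0.14 and 1.82 ± 0.06. *MMP1*, the *S*-methylmethionine permease, rose by 2.44, *SAM3*, for AdoMet, by 0.73, *YCT1*, for cysteine, by 1.07, and *OPT1*, for glutathione and oligopeptides, by 1.24. *VHT1*, for the sulfur-containing vitamin biotin, rose by 0.82. *OPT2*, another member of the oligopeptide family, read 6.75, 6.46 and 6.60 untreated and 6.07, 5.87 and 5.88 treated. It fell by 0.66 on the log2 scale, without overlap (adjusted p = 0.00193).

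**Figure D2:**
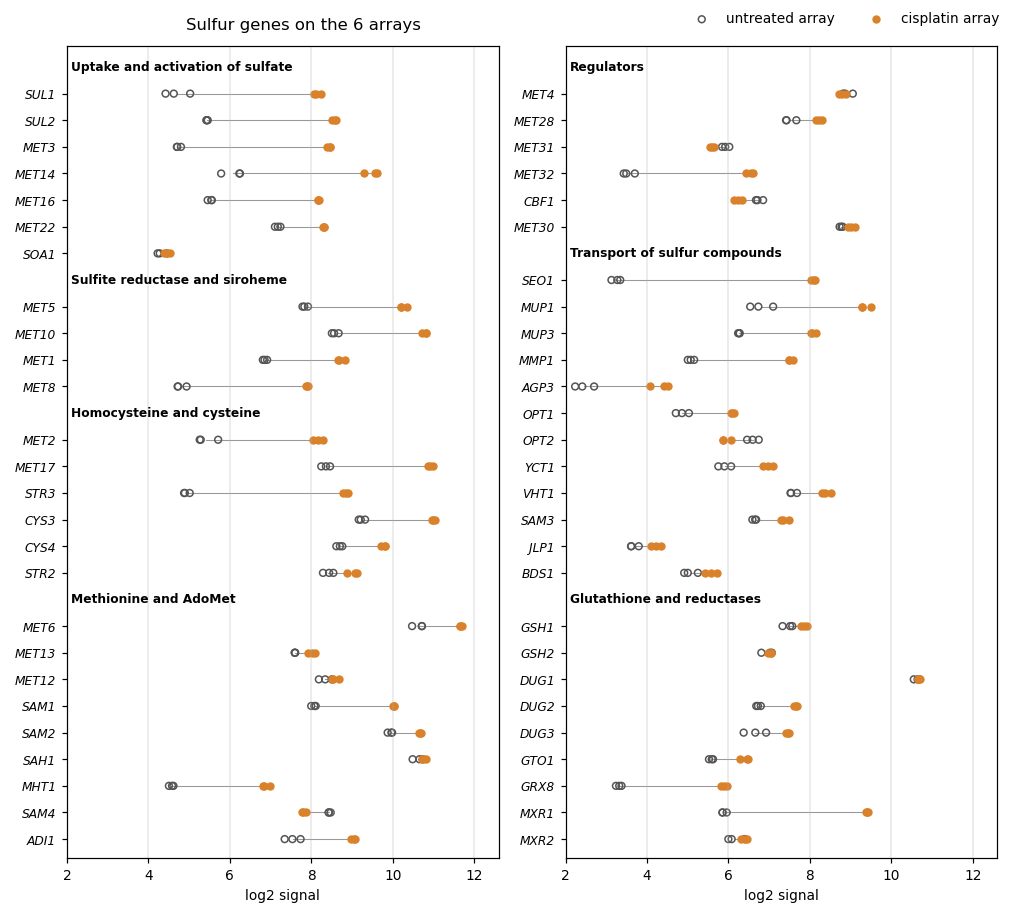
The log2 signal (x axis) of sulfur genes is shown on each of the 3 untreated arrays (open circles) and the 3 cisplatin arrays (filled circles), with a line between the group means. *SEO1*, *STR3*, *MET3* and *MXR1* move farthest, *MET4*, *SOA1* and *GSH2* stay in place, and *SAM4*, *OPT2*, *MET31* and *CBF1* move to the left.

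Glutathione, the main low-molecular-weight thiol, is made by Gsh1 and Gsh2 and broken down by the Dug proteins. Of the 20 measured genes of this system 12 rose and 0 fell, but the median was 0.25 and only 3 were DEGs. *GSH1*, of the limiting step of synthesis, read 7.52, 7.33 and 7.57 without and 7.87, 7.79 and 7.94 with cisplatin, a rise of 0.39 ± 0.08 (adjusted p = 0.00904). *GSH2* read 7.07, 6.81 and 7.02 and then 6.98, 7.05 and 7.04, which overlap (0.06 ± 0.08, adjusted p = 0.599). The 3 DEGs were *DUG2* (0.92) and *DUG3* (0.79), the partners that cleave glutathione in the cytosol, and *GTO1* (0.83), an omega-class transferase of peroxisomes. *YCF1*, which pumps glutathione conjugates into the vacuole, rose by 0.38, and *GLR1*, glutathione reductase, stood at 0.10 (adjusted p = 0.318).

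Outside the glutathione list, *GRX8*, which encodes a glutaredoxin, read 3.32, 3.38 and 3.24 untreated and 5.81, 5.88 and 5.96 treated. The groups were far apart (log2 2.57 ± 0.06, adjusted p = 2.12e-07). Among 12 thioredoxin and methionine sulfoxide reductase genes 2 rose and 0 fell. *MXR1*, which repairs the *S* form of oxidized methionine, read 5.86, 5.85 and 5.96 without and 9.37, 9.42 and 9.42 with cisplatin. It rose by 11.4-fold (log2 3.51 ± 0.06, adjusted p = 1.88e-08), whereas *MXR2*, for the *R* form, had 0.23 ± 0.11 with overlapping groups (adjusted p = 0.146). Without untreated replicate 1, the highest untreated array of *MXR2*, its value was 0.35 and passed (adjusted p = 0.011). *FMO1*, a flavin-containing monooxygenase that oxidizes thiols, rose by 1.79 ± 0.06. Defence against peroxide and superoxide did not move with them. Of its 12 genes 1 rose and 3 fell, and *CTT1*, the cytosolic catalase, fell by 0.58 on the log2 scale (adjusted p = 0.00352). *TRX2* and *YAP1*, a thioredoxin and the activator of the oxidative response, had values of 0.13 and -0.12 and did not pass.

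One-carbon units carried by folate feed both methionine and purines, and 8 of these 17 genes rose and 1 fell. The glycine cleavage genes *GCV1*, *GCV2* and *GCV3* rose by 1.52 ± 0.09, 1.38 ± 0.15 and 1.07 ± 0.06. *SHM2*, the cytosolic serine hydroxymethyltransferase, rose by 1.10, and its mitochondrial counterpart *SHM1* stood at 0.02 (adjusted p = 0.854). *FOL1*, of folate synthesis, rose by 0.94. *MTD1*, a cytosolic methylenetetrahydrofolate dehydrogenase, rose by 1.07, and the mitochondrial *MIS1* fell by 0.22. *SER33*, for the first step from a glycolytic intermediate to serine, read 6.78, 6.68 and 6.71 and then 9.25, 9.22 and 9.27. All treated arrays lay above all untreated ones, a rise of 5.76-fold (log2 2.53 ± 0.05, adjusted p = 8.76e-08). *SER3*, which encodes the same activity, read 9.97 to 10.03 untreated and 9.96 to 10.00 treated (adjusted p = 0.765).

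This pattern of one rising isozyme beside another that was not called or fell was also seen in other pairs, which were chosen after their values were seen. *ADE17* rose by 1.32 and *ADE16* stood at -0.06, though both encode the AICAR transformylase of purine synthesis. *PDC6* rose by 1.42 ± 0.06, from 5.28 to 6.70, while the pyruvate decarboxylase genes *PDC1* and *PDC5* had values of -0.12 (adjusted p = 0.135) and -0.39 (adjusted p = 0.0116). *PDC6* is known as the form of this enzyme that is poor in sulfur amino acids. In the list of isozymes with such a form *PDC6* was the only 1 of 9 genes that rose, and *ALD6*, an acetaldehyde dehydrogenase gene, fell by 1.01 on the log2 scale. *OYE3* rose by 1.32 ± 0.20 beside *OYE2* at 0.03. Copies of a pair can share sequence, and how far their probe sets cross-hybridize was not tested.

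In de novo purine synthesis 6 of 22 genes rose and 4 fell. Those that rose included *ADE17*, *ADE1* (0.71), *ADE13* (0.53), *ADE6* (0.45) and *ADE4* (0.39), and those that fell included *IMD3* and *GUA1*, which lead from IMP to GMP, at -0.63 and -0.58. In uptake and salvage of purines and pyrimidines 0 of 19 rose and 11 fell, with a median of -0.30. Of the 11, *AAH1*, *FCY2*, *APT1* and *ADO1* (-0.44) act on purines or, for *FCY2*, on purines and cytosine, and the others on pyrimidines. *AAH1*, adenine deaminase, read 5.32, 5.32 and 5.38 without and 4.37, 4.09 and 4.24 with cisplatin, a decrease with no overlap (log2 -1.11 ± 0.08, adjusted p = 9.71e-05). *FCY2* and *FUR4*, the permeases for purines with cytosine and for uracil, followed at -0.78 and -0.73, and *FUR1*, *CDD1*, *APT1* and *FCY1*, enzymes that reuse bases and nucleosides, at -0.66, -0.62, -0.47 and -0.40. In pyrimidine synthesis 0 of 9 genes rose and 4 fell, with *URA6* lowest at -0.54.

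A few metabolic genes rose apart from the rest of their pathways. *BNA3*, an aminotransferase gene placed with NAD synthesis, read 7.59, 7.49 and 7.51 and then 9.67, 9.67 and 9.70. It rose by 4.43-fold without overlap (log2 2.15 ± 0.05, adjusted p = 2.12e-07), while the other 14 genes of that list lay between -0.50 for *BNA7* and 0.37 for *NPT1*. *ZWF1*, the first enzyme of the pentose phosphate pathway and a source of NADPH, rose by 0.83, against 1 risen and 3 fallen of 11 in its list. *ARG7*, of arginine synthesis and in none of the lists, rose by 0.68.

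The 4 DNA repair lists hold 82 genes, of which 11 rose (13.4%), 9 fell (11.0%) and 1 was a DEG, with a median of 0.06. Over all genes 13.2% rose and 15.3% fell, so that the share of repair genes that rose was close to that of all genes. The DEG was *RAD59*, a relative of *RAD52* that anneals single strands in recombination. It read 4.39, 4.32 and 4.09 without and 6.95, 6.90 and 6.93 with cisplatin, a rise of 6.33-fold (log2 2.66 ± 0.08, adjusted p = 6.08e-07). No other repair gene exceeded a change of 0.48 in either direction. Among the other genes of homologous recombination *RAD57*, a recombination mediator, fell by 0.31, *XRS2* rose by 0.37 and *RAD54* did not pass (-0.09). In nucleotide excision repair, which removes platinum adducts, 5 of 21 genes rose and 3 fell, from *ELC1* at 0.43 to *RAD33* at -0.47. Translesion, postreplication and crosslink repair had 0 risen and 2 fallen of 15, *REV7* at -0.25 and *CHL1* at -0.26. The crosslink nuclease gene *PSO2* stood at 0.02 (adjusted p = 0.896).

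Among 30 checkpoint and ribonucleotide reductase genes 2 rose and 6 fell. *RNR3*, the reductase subunit gene known for its strong induction by DNA damage, read 5.67, 5.49 and 5.43 and then 5.85, 5.59 and 5.73. Those values overlap, and the difference did not pass (0.20 ± 0.09, adjusted p = 0.14). *HUG1*, another damage reporter, fell by 0.59, and *PLM2* and *ULI1*, placed in the same list, were lower too, at -0.99 and -0.75. *PLM2* read 3.74, 4.46 and 4.13 untreated and 2.96, 3.14 and 3.25 treated, so that the groups did not overlap although the untreated arrays were spread out.

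**Figure D3:**
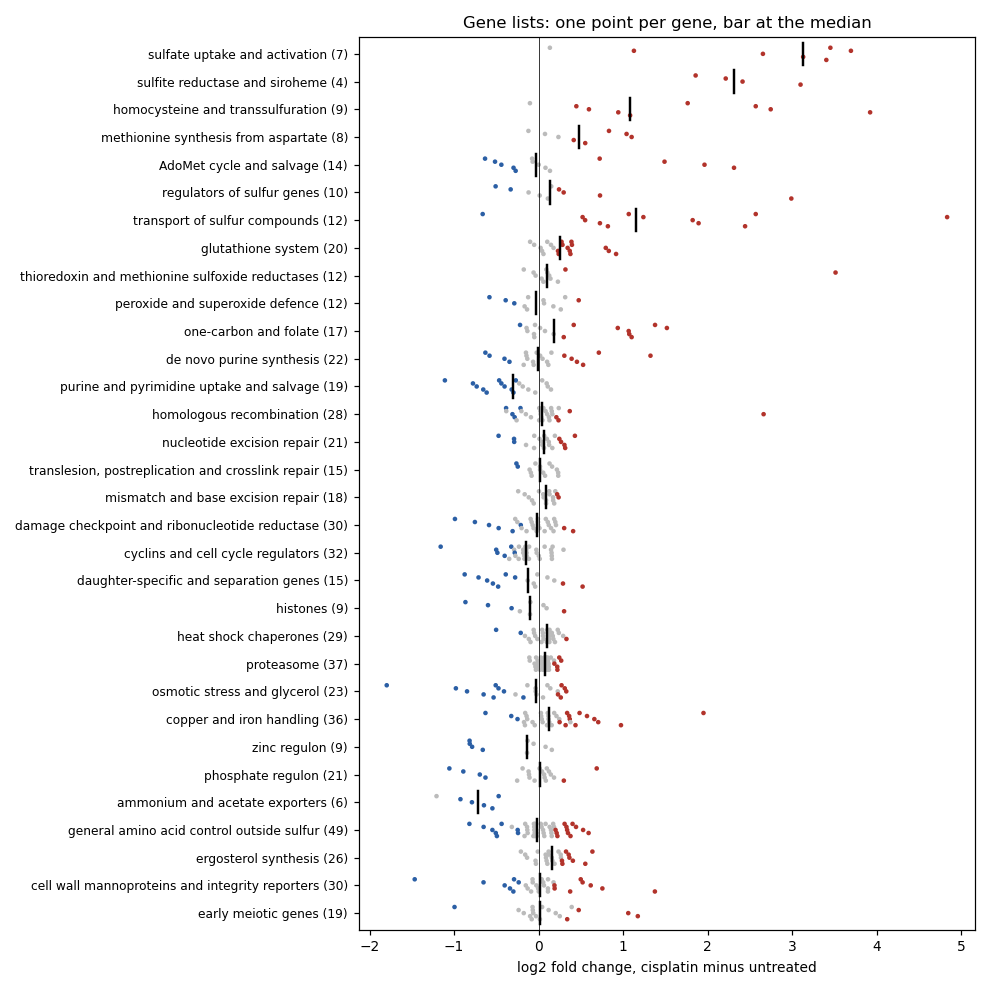
Each point is the log2 fold change (x axis, cisplatin minus untreated) of 1 gene in 1 of 32 lists, with the number of genes in brackets, risen genes in red, fallen genes in blue, genes that did not pass in grey and the median as a bar. The sulfur lists extend to the right, with medians of up to 3.13, the medians of the 4 repair lists lie between 0.02 and 0.09, and those of the salvage, zinc and ammonium lists at -0.30, -0.14 and -0.72.

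The decreases were led in number by the ribosome. All 143 probe sets of cytosolic ribosomal proteins had a negative log2 fold change, 131 of them (91.6%) fell, and 28 were DEGs, against 15.3% fallen over all genes. Their median was -0.53, with quartiles at -0.64 and -0.38. In the large subunit 70 of 78 fell (median -0.52), in the small subunit 56 of 60 (median -0.54), and all 5 genes of the stalk fell (median -0.41). Without cisplatin replicate 1 the number of DEGs among them was 18 in place of 28, and the number fallen was 124.

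The strongest of them was *RPL9A*, which read 8.19, 8.19 and 8.39 untreated and 6.78, 6.90 and 7.08 treated. It fell by 2.52-fold with no overlap (log2 -1.33 ± 0.09, adjusted p = 9.71e-05). *RPL9B*, which encodes nearly the same protein, read 8.78, 8.92 and 8.91 and then 8.37, 8.90 and 8.97. These overlap, treated replicate 1 being the low one (log2 -0.12 ± 0.15, adjusted p = 0.555). *RPL16A* and *RPS0A* followed at -1.13 ± 0.08 and -1.04 ± 0.07. In the other direction, *RPS9B* fell by 0.75 and its copy *RPS9A* read 6.30, 6.69 and 6.44 untreated and 6.26, 6.38 and 6.49 treated, with overlap (adjusted p = 0.526).

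Most ribosomal proteins are encoded by a pair of genes, and 48 pairs had a probe set for each copy. Both copies fell in 42 of them. The log2 fold changes of the copies differed by less than 0.3 in 36 pairs and by 0.5 or more in 5, *RPL9*, *RPL16*, *RPL24*, *RPS0* and *RPS9*. These copies can share sequence as well, and how far their probe sets cross-hybridize was not tested.

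Genes that build ribosomes or use them moved less than the ribosomal proteins. Of 116 genes for assembly of the small and large subunit 28 fell (24.1%), 1 rose and 1 was a DEG, with a median of -0.09. That DEG was *DBP2*, an RNA helicase, which read 6.82, 6.61 and 6.92 and then 5.76, 5.57 and 5.56 (log2 -1.15 ± 0.09, adjusted p = 0.000223). All treated arrays lay below the lowest untreated one. *NSR1*, a nucleolar protein of pre-rRNA processing placed with the factors of RNA polymerase I, fell by 1.12 ± 0.07. In that list 7 of 23 genes fell and 1 rose, with *RRN6* at -0.60 and *RPA43* at -0.51.

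Of 37 translation factors 5 fell (13.5%, no more than the 15.3% of all genes) and 0 rose. The largest decrease was that of *STM1*, which binds the ribosome (-0.62). Cytosolic aminoacyl-tRNA synthetases had 2 fallen of 22 (9.09%, below the share of all genes, with a median of -0.04). For the ribosomal proteins of mitochondria the counts were 16 fallen of 70 (22.9%) and a median of -0.07, with 1 DEG, *RSM10*, at -0.72. *ASC1*, whose product sits on the small subunit, fell by 0.81 ± 0.05.

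**Figure D4:**
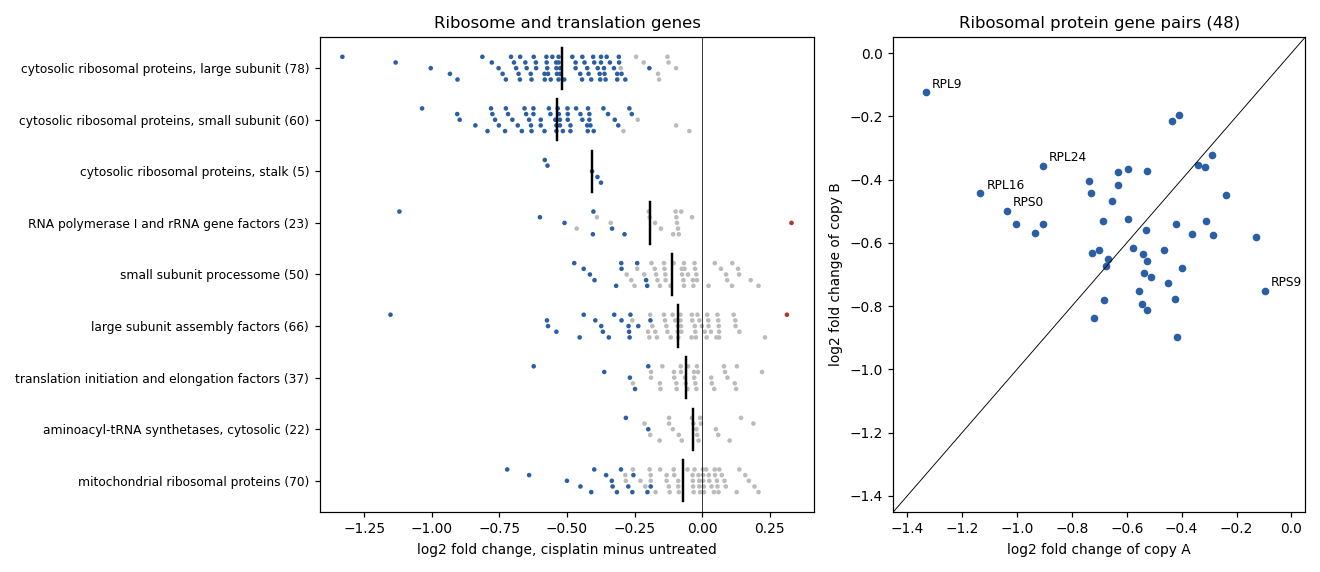
Left, the log2 fold change (cisplatin minus untreated) of each gene in 9 lists of the ribosome and translation, with risen genes in red, fallen genes in blue, genes that did not pass in grey and the median as a bar. Right, the log2 fold change of copy A (x axis) and copy B (y axis) of 48 ribosomal protein pairs with the line of equality. The medians of the 3 lists of cytosolic ribosomal proteins, -0.54 to -0.41, lie below those of the other 6 lists, and *RPL9* lies farthest from the line.

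The largest single decrease was that of *STL1*, the glycerol and proton symporter. It read 8.20, 9.14 and 8.61 untreated and 6.88, 6.83 and 6.85 treated. The untreated arrays were spread out and the treated ones tight, with no overlap (log2 -1.80 ± 0.20, adjusted p = 0.00081). *HOR2* and *RHR2*, the glycerol phosphatase genes, fell too (-0.98 and -0.85), as did *GPD1*, for the step before them (-0.53). *DAK1*, *DAK2* and *GUT1*, of glycerol breakdown, fell (-0.41, -0.51 and -0.48), and *GUT2*, the mitochondrial dehydrogenase, rose by 0.33. In the whole osmotic and glycerol list 5 genes rose and 9 fell of 23.

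The cell wall mannoprotein gene *CWP1* read 8.50, 9.41 and 8.82 untreated and 7.45, 7.48 and 7.39 treated (log2 -1.47 ± 0.20, adjusted p = 0.00189). *PRM10*, a pheromone-regulated gene, read 7.31, 8.07 and 7.67 and then 6.34, 6.39 and 6.42 (-1.30 ± 0.17, adjusted p = 0.00143), and *YOX1*, a repressor of the start of the cell cycle, read 6.27, 7.21 and 6.72 and then 5.61, 5.56 and 5.56 (-1.16 ± 0.20, adjusted p = 0.00524). In *STL1*, *CWP1*, *PRM10* and *YOX1* the untreated arrays had the same order, replicate 1 lowest and replicate 2 highest. That order occurred in 41 of the 87 fallen DEGs, and replicate 2 was the highest untreated array in 50 of them. Without untreated replicate 2 these 4 genes had log2 fold changes of -1.55, -1.22, -1.11 and -0.92, and 153 of the 177 DEGs remained.

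The rest of the cell wall list went both ways, 8 up and 7 down of 30. *NCW2*, a structural wall protein, rose by 1.38 ± 0.08, *YPS3*, an aspartic protease anchored at the surface, by 0.75, *CRH1*, a transglycosylase, by 0.62 and *PST1* by 0.52. *TIR1* fell by 0.65.

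Of 36 copper and iron genes 12 rose (33.3%, against 13.2% of all genes) and 3 fell. *TIS11*, which speeds the decay of mRNAs of iron-dependent proteins, read 3.74, 3.20 and 3.16 and then 5.39, 5.28 and 5.28, a rise of 3.86-fold (log2 1.95 ± 0.15, adjusted p = 0.000142). The gap was wide although untreated replicate 1 stood apart from the other untreated arrays. *HMX1*, heme oxygenase, rose by 0.97 ± 0.19, *SIT1*, a siderophore transporter, by 0.66 and *FTH1*, of vacuolar iron transport, by 0.57. *CTR1*, the high-affinity copper transporter, read 5.82, 5.47 and 5.67 without and 6.50, 6.22 and 6.34 with cisplatin. It rose by 0.71 ± 0.11 (adjusted p = 0.00289), without overlap. *FIT1*, a wall protein that retains siderophores, fell by 0.63.

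In the zinc list 0 of 9 genes rose and 4 fell. *ZRT1*, *ZRT2*, *ZRT3*, *ZRC1* and *COT1* lay between -0.14 and 0.16 and did not pass. *ZAP1*, the activator of zinc genes, read 7.40, 7.17 and 7.31 and then 6.59, 6.51 and 6.42 (-0.79 ± 0.08, adjusted p = 0.000431), and *ADH4*, *ZPS1* and *HAB1* fell as well (-0.82, -0.82 and -0.66). Of 21 phosphate genes 2 rose (9.52%) and 4 fell (19%, close to the 15.3% of all genes). The acid phosphatase genes *PHO5* and *PHO3* fell (-1.06 and -0.89), as did PHO11/PHO12, 2 acid phosphatase genes read by a common probe set (-0.70). *PHO89*, which imports phosphate with sodium, rose by 0.69.

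Among 6 ammonium and acetate exporter and permease genes 5 fell and 0 rose, with a median of -0.72. *ATO2* read 8.84, 8.89 and 8.81 untreated and 7.97, 7.89 and 7.92 treated (-0.93 ± 0.05, adjusted p = 3.43e-05), and *MEP3*, *MEP1* and *MEP2*, the ammonium permeases, fell as well (-0.79, -0.65 and -0.55). *ADY2* had a larger difference, -1.21 ± 0.44, but read 6.89, 8.93 and 8.08 untreated against 6.99, 6.55 and 6.73 treated, and with this overlap it did not pass (adjusted p = 0.0767). Without untreated replicate 1, the low one, *ADY2* stood at -1.75 and passed (adjusted p = 0.00264). Amino acid permeases gave 3 up and 6 down of 18. *TAT1* and *GNP1* fell (-0.81 and -0.78), as did *CAN1*, the arginine permease that carries the *can1-100* allele (-0.67), and *BAP3* and *BAP2*, which take branched-chain amino acids, rose by 0.65 and 0.49.

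Amino acid synthesis outside the sulfur pathways was mixed, with 12 risen and 8 fallen of 49 and a median of -0.02. *GCN4*, the activator of these genes, fell by 0.25. The lysine genes *LYS4*, *LYS9*, *LYS20* and *LYS12* fell (-0.82, -0.55, -0.51 and -0.49), while *LYS1*, for the last step of that pathway, rose by 0.35. *HIS7*, *ARG4* and *HIS5* rose by 0.40, 0.34 and 0.33.

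In glycolysis 1 of 26 genes rose, *PDC6*, and 7 fell (26.9%, against 15.3% of all genes), among them *TYE7*, an activator of glycolytic genes (-0.89). *HXT1*, a low-affinity glucose transporter, read 8.98, 9.36 and 9.22 and then 8.45, 8.34 and 8.49 (-0.76 ± 0.10, adjusted p = 0.00152), and *SUC2*, invertase, fell by 0.79 ± 0.06. Hexose transporters gave 4 up and 4 down of 22, with *HXT9* at 0.61 and *HXT5* at 0.57. In the TCA cycle and the respiratory chain together 0 of 60 genes rose and 6 fell (10.0%).

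Heat shock chaperones, protein folding of the endoplasmic reticulum and the proteasome together hold 83 genes, of which 7 rose (8.43%), 4 fell (4.82%) and 0 were DEGs, with a median of 0.06. *HSP104* read 11.32, 11.09 and 11.31 untreated and 11.40, 11.40 and 11.42 treated (0.17, adjusted p = 0.125). The lowest treated array lay above the highest untreated one, but the change did not pass. *RPN4*, the activator of proteasome genes, rose by 0.27, *ERO1*, the oxidase of the endoplasmic reticulum, by 0.45, and *SSB1*, a chaperone bound to ribosomes, fell by 0.50. Ergosterol synthesis had 8 risen and 0 fallen of 26, led by *ERG11*, the target of azole drugs, at 0.64 ± 0.08, and none of them was a DEG.

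Of 32 cyclins and regulators 0 rose and 6 fell (18.8%, close to the 15.3% of all genes). The largest decreases after *YOX1* were those of the forkhead factor gene *HCM1* (-0.50) and of *CDC20* (-0.49), which activates the anaphase-promoting complex. Of 15 daughter-specific and separation genes 7 fell and 2 rose. *DSE2* and *DSE4*, glucanases that part daughter from mother, fell (-0.88 and -0.54), as did *AMN1*, an inhibitor of mitotic exit (-0.48), and *CTS1*, the chitinase of the same process, rose by 0.29. Of 9 histone genes 3 fell and 1 rose. *HTB2* read 7.32, 7.53 and 7.51 and then 6.51, 6.59 and 6.67 (-0.87 ± 0.08, adjusted p = 0.000314), and *HTA2* fell by 0.60. The other H2B gene, *HTB1*, fell by 0.32, and the other H2A gene, *HTA1*, rose by 0.30 (adjusted p = 0.034).

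Genes of meiosis and sporulation included some of the larger changes, though meiosis is not open to haploid cells. *IME1*, the activator of entry into meiosis, read 4.56, 4.11 and 4.39 without and 5.52, 5.54 and 5.52 with cisplatin, a rise of 2.26-fold (log2 1.17 ± 0.11, adjusted p = 0.000351) without overlap. *SPS100*, a sporulation gene, rose by 1.06, and *RIM4*, an RNA-binding protein of meiosis that is not in the list, by 1.07. *REC104*, of recombination in meiosis, fell by 1.00 ± 0.08, from a mean of 9.05 to 8.05. Of the 19 genes in the list 4 rose (21.1%, against 13.2% of all genes) and 1 fell (5.26%, against 15.3%). Those that rose were *IME1*, *SPS100*, *NDT80* (0.47) and *REC114* (0.34). *IME2*, *SPO13*, *HOP1*, *DMC1*, *SPO11* and *MEK1* had values between -0.18 and 0.20 and did not pass. *SAE3*, a meiotic gene outside the list, was the only DEG not above background on all arrays. It read 0.57 to 0.95 untreated, below background on each array, and 1.23 to 1.94 treated, so that the size of its change is not given.

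Splicing genes, among which the SR-like proteins are substrates of SR protein kinases, gave 6 risen and 6 fallen of 56, with a median of -0.01 and 0 DEGs. *CUS1*, of the U2 particle, fell most (-0.63 ± 0.05). Of 11 genes of the ASTRA complex and related kinases 1 rose (9.09%) and 3 fell (27.3%), with 0 DEGs. *ASA1*, *TTI2* and *TOR2* fell (-0.65, -0.54 and -0.23), and *RVB1* rose by 0.24. *TTI1*, *TEL2*, *TRA1* and *RVB2* had values between -0.19 and 0.01 and did not pass.

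**Figure D5:**
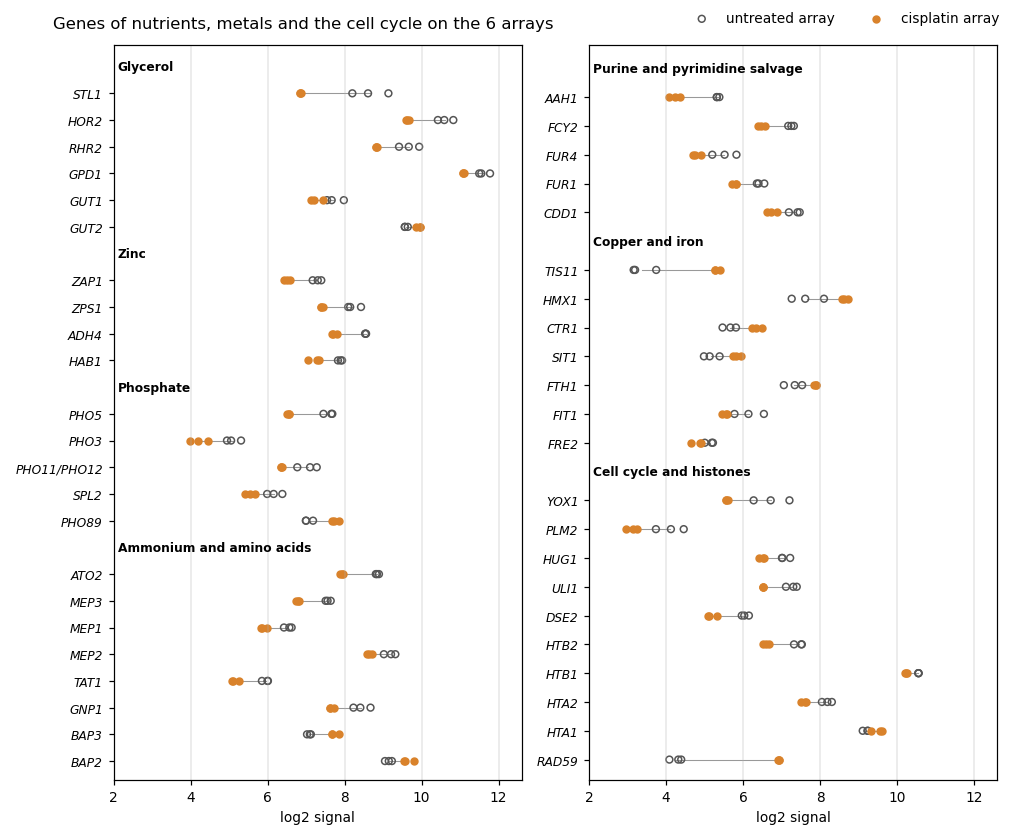
The log2 signal (x axis) of genes of glycerol, zinc, phosphate, ammonium, amino acids, purine and pyrimidine salvage, copper and iron, the cell cycle and histones, and *RAD59*, is shown on the 3 untreated (open circles) and 3 cisplatin arrays (filled circles), with a line between the group means. *STL1* shows a wide untreated and a tight treated group. The 4 zinc genes shown, those that fell in a list of 9, lie left of their untreated values. *TIS11*, *HMX1* and *CTR1* lie right of theirs.

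Some DEGs lay next to each other, a description made after their values were seen. Of 5550 pairs of neighbouring genes, 14 consisted of DEGs, 10 of them changing the same way. By arrangement 4 of the 14 were divergent, 6 tandem and 4 convergent. No expected number and no share of each arrangement over all pairs was worked out, and the pairs were not tested. The pairs that rose together were divergent, transcribed away from each other in the RefSeq annotation of the R64 assembly. They were *MHT1* and *MMP1* (2.31 and 2.44), both of *S*-methylmethionine use, *AGP3* and *AAD6* (1.89 and 1.05), and *CYS4* and *GTO1* (1.08 and 0.83). Pairs that fell together included the tandem *PHO5* and *PHO3* and *PRM10* with *YJL107C* (-1.30 and -1.16). Opposite changes occurred in 4 pairs, among them *MET1*, which rose by 1.86, with the tandem YKR070W (-0.70), and *RTA1* (0.93) with the divergent *RPS0A* (-1.04).

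The remaining DEGs were spread over many functions. No list held 28 of the 90 risen and 26 of the 87 fallen DEGs. Among those outside the lists, *COA2*, of cytochrome oxidase assembly, rose by 0.79, *BNR1*, a formin, by 0.79 and *RCN1*, a regulator of calcineurin, by 0.75. *PUT1*, proline oxidase, which is in a list, rose by 0.70 and was the only risen DEG among 26 nitrogen catabolite genes, of which 3 rose and 10 fell. *ATF2*, an alcohol acetyltransferase gene, read 3.66, 3.57 and 3.54 untreated and 2.82, 2.29 and 2.45 treated. Its groups did not overlap (log2 -1.07 ± 0.13, adjusted p = 0.00101). *PNS1* and *TOS6* came next, and each fell by 1.00 on the log2 scale. Among genes known by a locus name, 9 rose and 5 fell as DEGs, the largest being *YKL068W-A* at 1.65 and *YJL107C* at -1.16.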

How the data were processed

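The deposited values are log2 signals, for which the authors ran RMA 3 times, each time on 6 arrays. Scanner files were not used here. The authors' p and FDR columns were left out, no column was without a sample, and values of the other runs entered no test. RNA came from 3 biological replicates per group, after 4 h with 600 µM cisplatin in DMSO or with DMSO alone. The amount of RNA labelled differs between the sources, and so is not given.

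Rows with an *S. cerevisiae* gene were kept, with the probe set of the highest mean for each gene or set of genes, giving 5698. Of these, 123 are shared by several genes and stand beside any probe set of a single copy. The 3 treated arrays were compared with the 3 untreated ones with limma 3.58.1 in R 4.3.3 (lmFit and eBayes, all adjusted p two-sided, by Benjamini-Hochberg over 5698 genes). SE is limma's moderated standard error. A DEG had at least 1.6-fold change, p under 0.01 and adjusted p under 0.05. The number of arrays limits the precision. The steps were tested on simulated data with independent noise on each array and changes of 2-fold or more. Effects shared by same-numbered replicates and smaller changes were not covered by that test.

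Cultures were divided between the groups, and deviations of same-numbered samples from their group means correlated with r of 0.26, 0.21 and 0.32. For different numbers r was -0.18 to -0.03. Deviations cancel out within a group, so the negative values partly follow from the positive ones. Whether a number marks 1 divided culture or a shared processing step was not tested. The unpaired fit is the one reported, and its SE and adjusted p take no account of pairing. It gave 750 genes passing upwards and 871 downwards, against 867 and 992 with the replicate block. Alternatives were the replicate block, other thresholds, probe set choices, normalizations, a moderated prior with trend, and each array left out. Members and gene lists were chosen with earlier results of these data known, and lists are described by counts and medians without a test. Named genes were the 15 largest increases and decreases among DEGs without overlap, the leading members of each list and members that answer its name. Genes named for their paralog, neighbour or place outside the lists were chosen after their values were seen. Promoter motifs and the sulfur content of proteins had been planned and were not analysed here, and some genes that the rule names are not reported here.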

Additional observations from a re-analysis of the deposited data

How the results depend on the processing

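No DEG and no gene that passed changed sign under any alternative. With the replicate block 91 genes rose and 87 fell as DEGs, and all 177 DEGs remained. With it 867 genes passed upwards and 992 downwards at an adjusted p under 0.05, and 1561 of the 1621 that passed without it remained. Among 293 genes, which comprise all DEGs and most or all of the genes named, the block changed the call of *MET12* and of no other. Without a fold threshold 658 genes rose and 793 fell, and at 2-fold 50 and 15. At an adjusted p under 0.01, 336 passed upwards and 432 downwards. With the *S. pombe* probe sets fitted and adjusted together these were 417 and 555, and 176 of the DEGs remained. Leaving out each array in turn gave 84 to 124 risen and 87 to 108 fallen DEGs, and 430 to 918 genes passing upwards and 520 to 943 downwards. The genes passing numbered 450 and 575 without untreated replicate 3, 430 and 520 without cisplatin replicate 2, and 458 and 551 without cisplatin replicate 3, in each case with fewer arrays. Cyclic loess kept 172 DEGs, and quantile normalization and median centring 174 each.
Of those 293 genes, 16 no longer passed in some setting, among them the DEGs *EMA17*, *MGA1* and *VHR2*. The others were *FIT1*, *GCN4*, *GUT1*, *HTA1*, *HXT5*, *MET30*, *MIS1*, *NPT1*, *RAD33*, *REV7*, *RPN4*, *RVB1* and *XRS2*. A further 6 newly passed in some setting, *ADY2*, *MXR2* and *RAD52* without untreated replicate 1, *MET12*, *HSP104* with quantile normalization and *PDC1* with an intensity trend and robust prior. Without untreated replicate 2 the median of the heat shock list was -0.05 in place of 0.10, that of the hexose transporters -0.01 in place of 0.10, that of the glyoxylate cycle -0.07 in place of 0.05, and that of the α-specific genes 0.07 in place of -0.07. With probe sets of a single gene alone the maltose list had 0.13 in place of -0.17, the largest shift of any list median. The cause was not tested. RMA sets the arrays of a run to one distribution, so that a change in total mRNA could not be seen.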
